A study of Mus musculus with 12 samples.

Results

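Il10, which encodes the anti-inflammatory cytokine interleukin-10, was examined with 4 genes of inhibitory T cell receptors and 2 genes of transcription factors in BW5147, a T cell line grown from a mouse thymic lymphoma. The receptor genes were Pdcd1 (PD-1), Lag3, Ctla4 and Havcr2 (TIM-3), and the transcription factor genes were Prdm1 (Blimp-1) and Maf (c-Maf). These 7 genes, of 12393 with a gene name of their own on the array, were chosen by their names from earlier results of the same arrays, in which Il10 had been noticed for its pattern across IL-9 and dexamethasone. Their IL-9 differences are therefore given as a description, without a test. Each gene was measured by 1 probe set.

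Interleukin-10 restrains immune cells through a receptor that signals by JAK kinases and STAT3. The inhibitory receptors, often called checkpoints, are placed on T cells after activation and dampen further signalling when they meet their ligands. In T cells under repeated stimulation the receptors are known to appear together with Il10, and Blimp-1 and c-Maf are known to promote Il10 transcription there. Glucocorticoids act through the receptor encoded by Nr3c1, and IL-9 through a receptor that activates JAK kinases and STAT proteins.

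Cells were treated for 8 h in 6 groups of 2 arrays each. The groups were dexamethasone (Dex, a synthetic glucocorticoid, 100 ng/ml) with IL-9 (100 U/ml), IL-9 alone, Dex with the chemokine CCL1 (100 U/ml), CCL1 alone, Dex alone, and unstimulated cells. All arrays came from 1 cell line in the same medium with serum. The labels give each group an array 1 and an array 2 without saying whether these were separate cultures. The spread that p-values measure may thus be technical. In the CCL1 test it also holds a difference in glucocorticoid targets between arrays 1 and 2 of the unstimulated and IL-9 groups, given below. That of the unstimulated arrays enters the CCL1 difference itself as well. RNA of whole cultures was measured, in which more cells with a transcript and more transcript per cell cannot be told apart. The array CCL1 2 was of another array type in a table of its own. It is shown beside the others but was left out of the tests, so CCL1 alone rested there on 1 array. Values are MAS5 signals, a linear brightness scaled to a common mean in each array, and log2 differences are of signal + 16.

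Of the T cell markers 8 of 12 measured lay above the filter on low values (a signal of about 6.32), among them Cd3e, Cd3g and Thy1, while Cd4 and Cd8a had medians of 0.974 and 4.36. The summed signal of all 12 ran from 5154 to 6957 over the arrays, against 4.30 to 18.6 for 3 B cell markers, 23.6 to 42.8 for 5 myeloid markers, 0.328 to 12.5 for 2 NK cell markers and 1.90 to 22.0 for 3 stromal markers. Of these others, 3 of the 5 myeloid and 1 of the 3 stromal markers also passed the filter, and 0 of the B cell and NK cell markers. Ptprc, which other white blood cells carry too, had the largest median of the 12, at 2667. In the arrays numbered 1 and labelled without Dex, known targets of the glucocorticoid receptor were as high as with Dex. Of 13 such targets listed, 10 passed the filter, among them Tsc22d3, Fkbp5 and Mt1. The mean level of these 10, relative to the mean of 11 arrays, was 0.171 in IL-9 1, 0.157 in CCL1 1 and 0.370 in unstimulated 1. It was 0.0787 to 0.310 in the 6 Dex arrays. In IL-9 2, CCL1 2 and unstimulated 2 it was -0.928, -0.848 and -0.825. In these targets the 3 arrays numbered 1 and labelled without Dex thus resembled the Dex arrays. The labels do not give the reason, and it was not tested. Each IL-9 result is given by array number.

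Pdcd1 is shown with the start region of its gene, as RefSeq gives it for assembly GRCm38.p6. Its signal was the most like that of Il10, by a likeness that is described below and was not tested. The region is chr1:94052504-94052803, minus strand, 250 bases before and 50 after the gene's start. Capitals mark matches of AGAACA, an arm of the glucocorticoid receptor element, on either strand.

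Pdcd1: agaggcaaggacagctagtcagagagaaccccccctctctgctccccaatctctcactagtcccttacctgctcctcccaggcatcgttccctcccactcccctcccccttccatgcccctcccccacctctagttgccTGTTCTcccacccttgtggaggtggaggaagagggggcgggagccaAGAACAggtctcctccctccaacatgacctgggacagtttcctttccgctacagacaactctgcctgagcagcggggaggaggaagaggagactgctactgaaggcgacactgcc

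The arm matched at 2 places, 111 bases before the start on the opposite strand and 65 bases before it on the gene's strand. It occurs in 19.0% of all 32851 such start regions, so a match is common. The full element of 2 facing arms (in 0.00913% of the regions), the STAT motif TTCNNNGAA (8.30%) and TGCTGA, the core of the Maf element (19.5%), had no match in the Pdcd1 region. No match of any of these was found for Ctla4, Prdm1 and Havcr2, whose start regions were also available. These are matches of letters and were not tested for binding.

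Il10 stood high in 3 of the 4 arrays given IL-9. Its signal was 114 in Dex+IL-9 1, 68.6 in Dex+IL-9 2, 117 in IL-9 1 and 5.91 in IL-9 2. Without a cytokine it was 17.2 in Dex 1, 16.1 in Dex 2, 14.9 in unstimulated 1 and 1.49 in unstimulated 2. The 3 high arrays did not overlap with any other array, whereas IL-9 2 lay below 3 of the 4 arrays without a cytokine.

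With CCL1 the Il10 signal was 12.7 in Dex+CCL1 1, 9.75 in Dex+CCL1 2, 10.1 in CCL1 1 and 5.72 in CCL1 2. None of these exceeded the highest array without a cytokine. By group, Il10 averaged 91.1 ± 31.8 in Dex+IL-9, 61.3 ± 78.4 in IL-9, 11.2 ± 2.06 in Dex+CCL1, 7.93 ± 3.12 in CCL1, 16.6 ± 0.809 in Dex and 8.21 ± 9.50 in unstimulated cells (SD, n = 2 each, CCL1 across the 2 tables). Ordered by these means, Dex+IL-9 and IL-9 did not differ beyond their spread, nor did the neighbours Dex+CCL1 and unstimulated cells, or CCL1 and unstimulated cells. Dex lay above Dex+CCL1 by more than the SD of either, and IL-9 could not be placed above Dex because its 2 arrays lay on both sides of it.

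**Figure D1:**
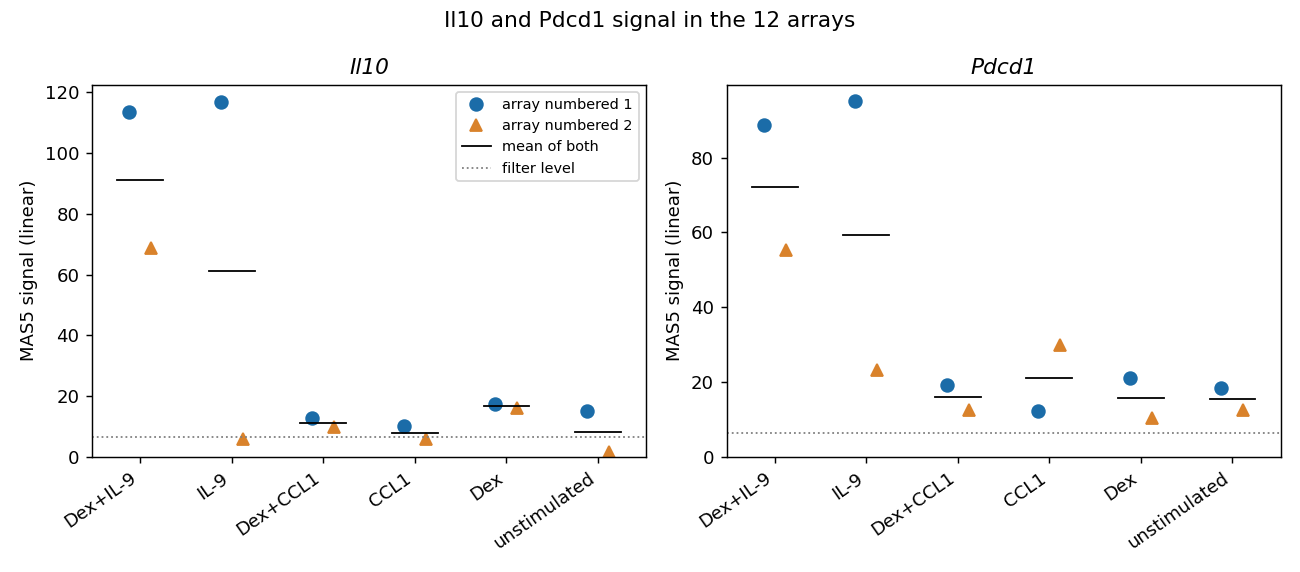
MAS5 signal (linear scale) of Il10 and Pdcd1 in each of the 12 arrays, by group. Points are single arrays, short lines the mean of both, and the dotted line the filter level. Dex+IL-9 1, Dex+IL-9 2 and IL-9 1 stand above all other arrays for both genes.

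Pdcd1 had the same 3 arrays on top. Its signal was 88.8 in Dex+IL-9 1, 55.4 in Dex+IL-9 2, 95.2 in IL-9 1 and 23.3 in IL-9 2. Without a cytokine it was 21.2 in Dex 1, 10.4 in Dex 2, 18.5 in unstimulated 1 and 12.6 in unstimulated 2. Unlike Il10, Pdcd1 was above all 4 of these arrays in IL-9 2 as well, though by little.

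With CCL1 the Pdcd1 signal was 19.2 in Dex+CCL1 1, 12.5 in Dex+CCL1 2, 12.2 in CCL1 1 and 29.9 in CCL1 2. The last of these was the highest array without IL-9, and it came from the other array type. By group, Pdcd1 averaged 72.1 ± 23.6 in Dex+IL-9, 59.3 ± 50.9 in IL-9, 15.8 ± 4.74 in Dex+CCL1, 21.0 ± 12.5 in CCL1, 15.8 ± 7.59 in Dex and 15.5 ± 4.14 in unstimulated cells (SD, n = 2 each, CCL1 across the 2 tables). Dex+IL-9 and IL-9 again did not differ beyond their spread, and the other 4 groups lay within each other's spread.

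The IL-9 effect was then read in 4 pairs of arrays that share the number and the Dex label. Il10 differed by 1.96 log2 between Dex+IL-9 1 and Dex 1, by 1.40 between Dex+IL-9 2 and Dex 2, and by 2.10 between IL-9 1 and unstimulated 1. Between IL-9 2 and unstimulated 2, the pair with low glucocorticoid targets, it differed by 0.33. The mean of the 4 was 1.45 ± 0.81 (SD).

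For Pdcd1 the differences were 1.50 for number 1 with Dex, 1.43 for number 2 with Dex, 1.69 for number 1 without Dex and 0.46 for number 2 without Dex. Their mean was 1.27 ± 0.55 (SD). Without the pair of IL-9 1 and unstimulated 1, which had high targets though labelled without Dex, the means were 1.23 for Il10 and 1.13 for Pdcd1. Both genes were positive in all 4 pairs, which held for 8.66% of the 13575 probe sets kept, and smallest in the same pair. Both also had at least 1 log2 in the other 3 pairs, as did 14 probe sets in all (0.103%). Of these 14, 6 had under 0.5 log2 in number 2 without Dex (0.0442% of those kept). They belonged to Il10, Pdcd1, Fam102a with 2 probe sets, Gadd45g, a stress-response gene, and Mt1, a metallothionein that is also among the 10 glucocorticoid targets. These bounds were set after the values had been seen, and nothing is read from the counts because IL-9 differences chose the genes.

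Bcl3, an IkB family gene already known from these arrays to be high with IL-9, was read beside them. Its signal was 158 in IL-9 2 and 5.33 in unstimulated 2. In IL-9 1 and unstimulated 1 it was 159 and 6.08. The log2 difference of Bcl3 was 3.03 for number 2 and 2.99 for number 1, so the difference of Bcl3 was as large in the pair where Il10 and Pdcd1 moved least.

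**Figure D2:**
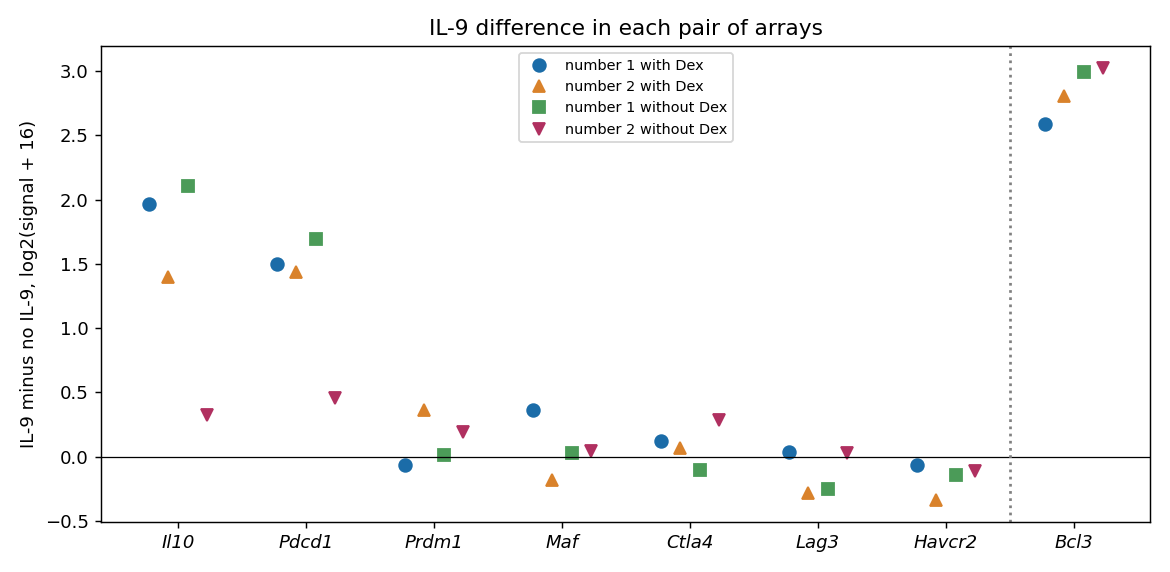
Difference between arrays with and without IL-9 on the log2(signal + 16) scale, in each of the 4 pairs of equal number and Dex label, for the 7 genes and, right of the dotted line, Bcl3. Il10 and Pdcd1 lie between 1.40 and 2.10 in 3 pairs and under 0.5 in number 2 without Dex, where Bcl3 is at 3.03.

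How much smaller the Il10 response was in that pair cannot be settled, since both of its signals lay below the filter level. As a plain difference in signal, Il10 was 96.4 higher in Dex+IL-9 1, 52.5 in Dex+IL-9 2 and 102 in IL-9 1 than in their partners, and 4.42 higher in IL-9 2. As a plain ratio of signals the first 3 were 6.60, 4.27 and 7.82. In IL-9 2 the ratio was 3.97, near that of Dex+IL-9 2, but it rests on 2 signals below the filter level. With 1 in place of 16 added to the signal, the log2 differences of Il10 were 2.65, 2.03 and 2.89 in these 3 pairs and 1.47 in number 2 without Dex, so the gap narrowed but the order stayed.

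Pdcd1 lay above the filter level in both arrays of that pair. Its plain differences were 67.7 in Dex+IL-9 1, 45.0 in Dex+IL-9 2, 76.8 in IL-9 1 and 10.7 in IL-9 2. Its ratios were 4.20, 5.31 and 5.16 in the first 3, and 1.85 in IL-9 2. On each of these scales the pair with low glucocorticoid targets had the smallest Pdcd1 difference.

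The arrays can also be ordered by their glucocorticoid targets. Tsc22d3, which encodes the glucocorticoid-induced leucine zipper, had 260, 261 and 230 in Dex+IL-9 1, Dex+IL-9 2 and IL-9 1, the 3 arrays with high Il10, and 58.7 in IL-9 2. Fkbp5, a co-chaperone of the glucocorticoid receptor, had 691, 753 and 652 in these 3 and 348 in IL-9 2. Tsc22d3 was higher still in arrays with low Il10, with 422 in Dex 2, 349 in Dex 1, 347 in unstimulated 1 and 330 in CCL1 1. Fkbp5 was highest in unstimulated 1, at 767. With IL-9, Tsc22d3 was lower in all 4 pairs, by a mean difference of -0.59 log2, and Fkbp5 differed by 0.062 on average. Whether the glucocorticoid state or another difference between the numbered arrays accompanied the Il10 and Pdcd1 levels was not tested.

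Within number 2, where Dex arrays had high and other arrays low targets, Il10 was 1.95 log2 higher in Dex+IL-9 2 than in IL-9 2 and 0.87 higher in Dex 2 than in unstimulated 2. Within number 1 the corresponding values were -0.035 and 0.10. For Pdcd1 they were 0.86 and -0.11 within number 2, and -0.086 and 0.11 within number 1. In the arrays without a cytokine Pdcd1 thus differed little in number 2, by 1 pair of arrays. Il10 lay 0.87 apart in that pair, at signals of 16.1 and 1.49. The number 1 pairs do not bear on Dex, since their arrays labelled without Dex already had targets as high as with it.

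**Figure D3:**
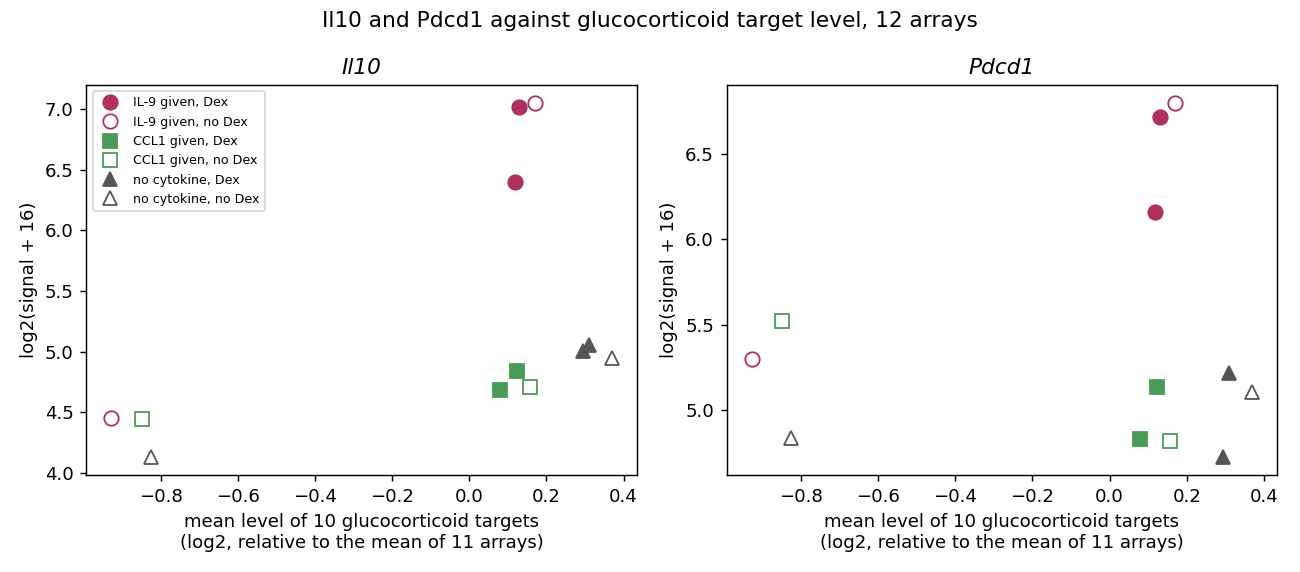
Il10 and Pdcd1 as log2(signal + 16) against the mean level of 10 glucocorticoid targets (log2, relative to the mean of 11 arrays) in 12 arrays. Filled symbols are Dex arrays and open symbols arrays labelled without Dex; the 3 arrays with IL-9 and a target level between 0.119 and 0.171 are high, and IL-9 2 at -0.928 is not.

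Il10, Pdcd1, Prdm1 and Maf passed the filter on low values. Their differences with Dex and with the array number come from a limma model with treatment and the combinations of Dex and number as terms. The model takes the IL-9 difference as equal in all of these combinations. By the pairs above it ran from 0.33 to 2.10 for Il10 and from 0.46 to 1.69 for Pdcd1, so the model's values average unlike differences. That model takes in the IL-9 arrays whose split by number and glucocorticoid state chose the genes, so these values are a description, without a test. For Dex against no Dex within number 2, Il10 differed by 1.46 log2 and Pdcd1 by 0.46, against 0.19 for Prdm1 and -0.20 for Maf. Both of the first values rested on single arrays. Without IL-9 2 they were 0.71 for Il10 and -0.084 for Pdcd1, and without unstimulated 2 they were 2.21 and 1.00.

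Number 1 against number 2 was compared in the arrays labelled without Dex. Il10 was 1.67 log2 and Pdcd1 0.79 higher in number 1, against 0.072 for Prdm1 and -0.14 for Maf. Without IL-9 2 the differences were 0.92 for Il10 and 0.25 for Pdcd1, and without unstimulated 2 they were 2.42 and 1.33.

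CCL1, averaged over cells with and without Dex, left all 4 genes tested short of the threshold. The difference was -0.048 for Il10 (SE 0.48, 95% interval -1.10 to 1.01, adjusted p = 0.993) and -0.070 for Pdcd1 (SE 0.32, 95% interval -0.76 to 0.62, adjusted p = 0.982). Prdm1 differed by 0.28 (SE 0.16, 95% interval -0.059 to 0.62, adjusted p = 0.921) and Maf by 0.087 (SE 0.15, adjusted p = 0.968). By limma 0 of the 4 passed, 0 had an unadjusted p under 0.05, and 0.00737% of all probe sets were called, which was Dusp6 alone. The interval of Il10 holds differences up to 1.01 log2, so the test does not show that CCL1 left Il10 as it was. Without Dex the average sets CCL1 1, with high glucocorticoid targets, against unstimulated 1 with high and unstimulated 2 with low targets. The differences thus mix that split with CCL1. By pairs of equal number, Il10 differed by -0.21 and -0.32 with Dex (numbers 1 and 2) and by -0.24 in number 1 without Dex. In number 2 without Dex it differed by 0.31, across 2 array types. With the combinations of Dex and number as terms the difference of Il10 was -0.44 and that of Pdcd1 -0.22, with adjusted p = 0.584 and 0.759 by limma.

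**Figure D4:**
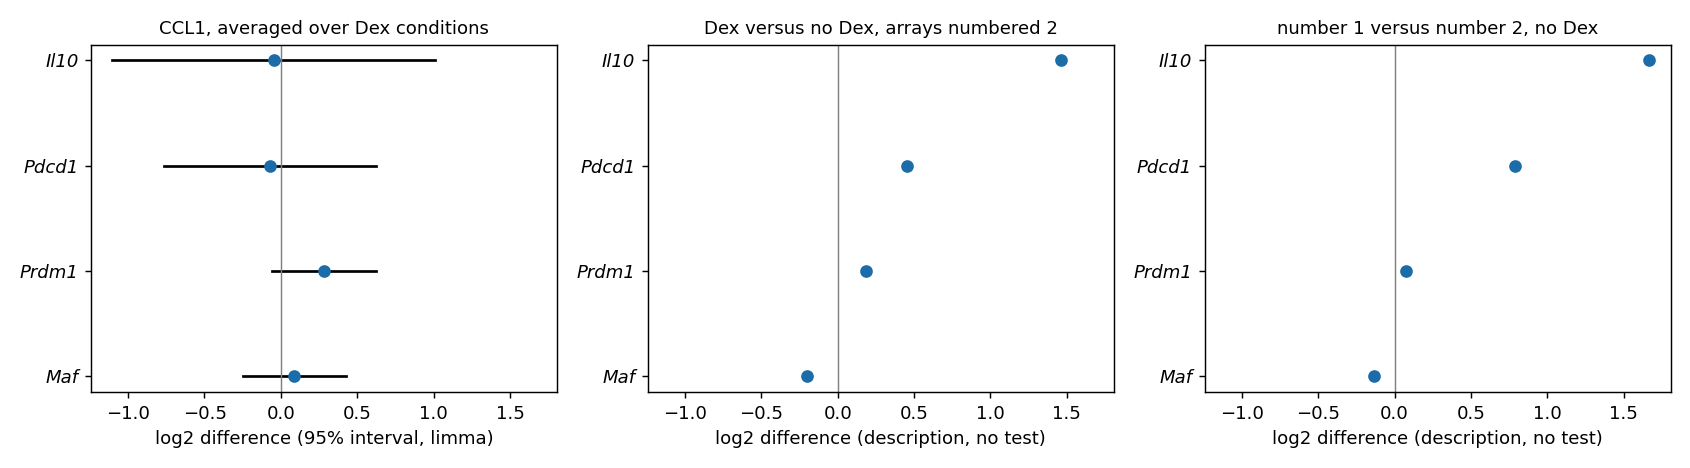
Log2 differences (points) from limma for the 4 genes that passed the filter, in CCL1 averaged over Dex conditions (lines are 95% intervals), Dex against no Dex in the arrays numbered 2, and number 1 against number 2 without Dex, both without a test. The CCL1 intervals all hold 0, and Il10 lies farthest from 0 in the other panels, at 1.46 and 1.67.

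Prdm1 and Maf did not follow Il10. Prdm1 had signals of 12.4 and 15.2 in Dex+IL-9, 11.3 and 11.02 in IL-9, 15.3 and 20.5 in Dex+CCL1, 13.6 and 11.6 in CCL1, 13.6 and 8.28 in Dex, and 11.01 and 7.71 in unstimulated cells (arrays 1 and 2). Its highest array was Dex+CCL1 2, and both IL-9 arrays lay below all CCL1 and Dex+CCL1 arrays and narrowly above both unstimulated arrays. Dex+IL-9 overlapped with Dex. The IL-9 differences of Prdm1 ran from -0.062 to 0.36 log2 with a mean of 0.13 ± 0.19 (SD, 4 pairs).

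Maf had signals of 10.9 and 6.91 in Dex+IL-9, 9.78 and 12.3 in IL-9, 10.6 and 9.54 in Dex+CCL1, 10.6 and 15.9 in CCL1, 4.94 and 9.95 in Dex, and 9.29 and 11.4 in unstimulated cells (arrays 1 and 2). Both CCL1 arrays lay above both Dex arrays and, by little, above both Dex+CCL1 arrays, and every other pair of groups overlapped. Its IL-9 differences ran from -0.18 to 0.36 with a mean of 0.064 ± 0.22 (SD, 4 pairs). At these low signals a change of either regulator smaller than the spread would not be seen.

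The other 3 receptor genes lay at or below the filter level on average and were not tested. Ctla4, a receptor that competes with CD28 for its ligands, ranged from 1.94 in CCL1 2 to 11.3 in IL-9 2, with a median of 5.57 over the 12 arrays. Lag3, a receptor that binds MHC class II, ranged from 0.568 to 5.20 with a median of 2.15. Havcr2 ranged from 0.173 in IL-9 2 to 4.77 in Dex 2 with a median of 2.19. In Dex+IL-9 1, where Il10 and Pdcd1 had 114 and 88.8, these were 5.74 for Ctla4, 5.20 for Lag3 and 3.01 for Havcr2.

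Their IL-9 differences were small beside those of Il10 and Pdcd1. The mean over the 4 pairs was 0.093 ± 0.16 log2 for Ctla4, -0.12 ± 0.17 for Lag3 and -0.16 ± 0.12 for Havcr2 (SD). Havcr2 was lower with IL-9 in all 4 pairs, which held for 13.1% of the probe sets kept. Havcr2 was not among those kept, and the share among probe sets below the filter was not computed. It had 3.01 and 0.444 in Dex+IL-9, below both Dex arrays with 3.87 and 4.77, and 1.14 and 0.173 in IL-9, below both unstimulated arrays with 2.92 and 1.45. All of these signals lay below the filter level. Pdcd1 was thus the receptor gene of the 4 whose mean lay above the filter level.

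**Figure D5:**
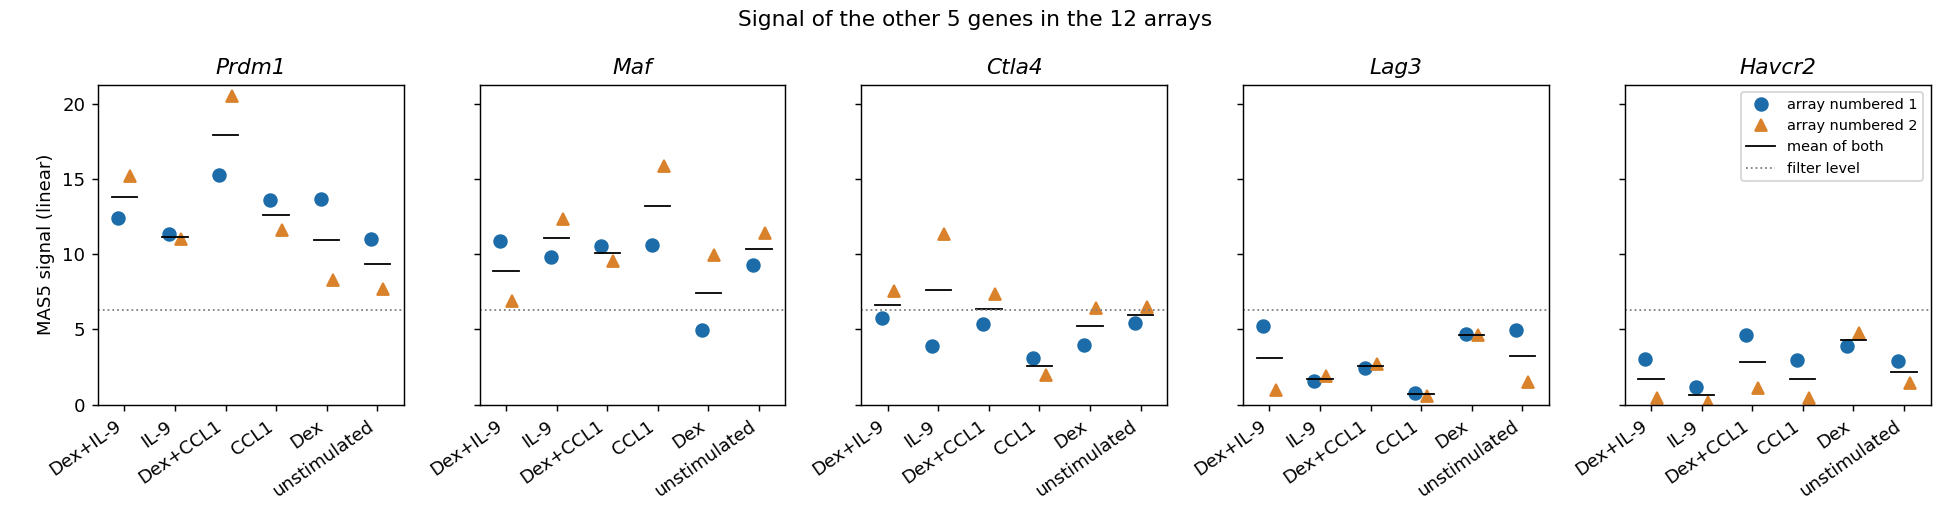
MAS5 signal (linear scale) of Prdm1, Maf, Ctla4, Lag3 and Havcr2 in each of the 12 arrays, by group, with the mean of both arrays (short lines) and the filter level (dotted). All points lie between 0.173 and 20.5, and the highest is Prdm1 in Dex+CCL1 2.

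Of all named genes that passed the filter and ranged over at least 1 log2, the one most like Il10 over the 11 arrays was Pdcd1. These arrays include the IL-9 arrays whose split chose the genes, so nothing is read from this rank. The likeness was measured as the root mean square difference of mean-centred log2 values, which was 0.37 for Pdcd1, 0.39 for Fam102a and 0.51 for Samhd1, a dNTP hydrolase, among 1170 candidates. For Pdcd1 the closest were Fam102a (0.25), Tha1, a threonine aldolase (0.33), and Nusap1, a spindle-associated protein (0.33). Il10 was not among the 3 closest to Pdcd1.

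Fam102a had the same 3 arrays on top, with signals of 290 in Dex+IL-9 1, 227 in Dex+IL-9 2, 263 in IL-9 1 and 81.3 in IL-9 2. Its other arrays lay between 68.2 and 116, with IL-9 2 among them. Samhd1 had 441 in Dex+IL-9 1, 389 in Dex+IL-9 2, 395 in IL-9 1 and 154 in IL-9 2, with 102 to 266 elsewhere. Like Il10, Samhd1 was lower in IL-9 2 than in Dex 1, which had 266, and it was so at signals far above the filter level.

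A wider list of checkpoint receptors, their ligands, the IL-10 pathway, regulators of Il10 or of T cell exhaustion and other T cell cytokines held 62 genes, of which 56 were matched on the array and 29 of these passed the filter, as did 13575 of all 22626 probe sets. By limma 0 of the 29 passed in the CCL1 average, 0 in Dex against no Dex within number 2, where 0.597% of all probe sets were called, and 0 in number 1 against number 2 without Dex, where 0.796% were. At an unadjusted p under 0.05 were 7 of the 29 (24.1%) in the CCL1 average, beside 5.60% of all probe sets, 6 (20.7%) in Dex against no Dex, beside 10.5%, and 7 (24.1%) in number 1 against number 2, beside 9.17%. Those of the CCL1 average were Cd274, Pvr, Il10rb, Id2, Rbpj, Nr4a1 and Tgfb1. The list was drawn up with earlier results of these arrays known, and the CCL1 average mixes in glucocorticoid state. Nothing is therefore read from these shares. Of 13 further checkpoint receptors 10 were matched on the array, and 4 of these passed the filter, with mean signals from 8.98 for Vsir to 34.3 for Cd96, and none of the 4 had IL-9 differences of 1 sign in all pairs. Pdcd1lg2, which encodes the PD-1 ligand PD-L2, had a mean signal of 61.2 and a mean IL-9 difference of -0.22, negative in all 4 pairs. Lgals9, a ligand of TIM-3, had a mean signal of 1528 and a mean IL-9 difference of -0.13.

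For IL-9, described without a test, 7 of the 29 were higher in all 4 pairs and 5 lower in all 4, beside 8.66% and 13.1% of all probe sets kept. Nothing is read from these counts either, as the list was drawn up with earlier results known. Those higher were Pvr, Stat3, Irf4, Nfil3, Ahr, Bcl6 and Id2. Ahr, Irf4 and Bcl6 had mean signals of only 7.53, 9.95 and 11.5. Their lowest arrays, at 1.50, 0.438 and 1.35, lay below the filter level, so their signs rest partly on such signals. Stat3, the main transducer of the IL-10 and several other cytokine receptors, had a mean difference of 0.96 and, unlike Il10, 1.02 in number 2 without Dex. Nfil3, a transcription factor that promotes Il10 in helper T cells, differed by 0.89, 0.30, 0.97 and 0.12 in number 1 with Dex, number 2 with Dex, number 1 without Dex and number 2 without Dex, so that its smallest value fell in the same pair as that of Il10. Those lower were Pdcd1lg2, Lgals9, Il10rb, Tox and Gata3, with mean differences of -0.37 for Tox, a factor of exhausted T cells, and -0.64 for Gata3, a factor of thymocytes and helper T cells. Il10rb, a chain of the IL-10 receptor, averaged a signal of 114 and differed by -0.21, and Il10ra, the chain that binds the cytokine, lay below the filter level.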

How the data were processed

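Total RNA of 12 samples was hybridised to Affymetrix arrays, 2 per group. The deposited values are MAS5 signal intensity values, per the submitters' processing notes, scaled by the authors to a common mean, as the values show. The version of MAS5 is not given in the sources used here. A common mean hides a change of all genes in 1 direction. No value column was left unused (0).

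After removal of 64 control probe sets 22626 remained. Signals were taken as log2(signal + 16), which understates folds of low signals. The 13575 probe sets above the 40th percentile of the mean were tested over 11 arrays with limma 3.58.1 (R 4.3.3, eBayes with trend, Benjamini-Hochberg over all of them, threshold 0.05). CCL1 used 1 mean per group; the other tests used treatment and the 4 combinations of Dex and number, each with 5 residual degrees of freedom. The fits were run on simulated data with independent noise in each array. These data held no IL-9 effect that differs between numbers, so they do not show how the fits behave with one. Precision is limited by the number of arrays.

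Tests of Pdcd1, Prdm1 and Maf had been planned for Dex and for the array number and are not reported, since those contrasts share the IL-9 arrays that chose the genes. The genes, lists, motifs and tests were chosen with earlier results of these arrays known. Named genes are the 7 members, the 3 most like Il10 and Pdcd1, Tsc22d3, Fkbp5, Bcl3, Dusp6, and genes of the wider and marker lists by role; the counts of IL-9 pairs were added after values were seen. Nr3c1, Il9r and Ccr8 were computed beside them. Gene names came from the platform annotation, and start regions from RefSeq for 4 of the 7 genes. Alternatives were pseudocounts of 1 and 64, other filters and normalizations, no trend, number terms, the array CCL1 2 added and each array left out.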

Additional observations from a re-analysis of the deposited data

Results flagged for a closer look

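In the array CCL1 2, in a table of its own and outside the tests, Pdcd1, Maf and Prdm1 lay above both unstimulated arrays. Prdm1 did so only narrowly. The share of all probe sets that did so was not computed, so nothing is read from the number of genes. Pdcd1 had 29.9 in CCL1 2, against 18.5 in unstimulated 1 and 12.6 in unstimulated 2. Maf had 15.9, against 9.29 and 11.4, and Prdm1 had 11.6, against 11.01 and 7.71. The arrays lie in tables scaled separately and on 2 array types, so array type and treatment cannot be told apart.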

How the results depend on the processing

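The mean IL-9 difference kept its sign for Il10 and Pdcd1 in every setting run. It was 2.26 for Il10 and 1.87 for Pdcd1 with a pseudocount of 1, and 0.67 for Pdcd1 with a pseudocount of 64 (0.79 for Il10), as the pseudocount shrinks differences of low signals. Without any 1 of the 8 arrays of the pairs, in a calculation chosen after seeing the data, it ran from 1.23 to 1.82 for Il10 and from 1.13 to 1.54 for Pdcd1. In the CCL1 test none of the 4 genes passed under any setting, with adjusted p by limma from 0.410 (Prdm1) upward. For CCL1 the Il10 difference turned to 0.14 with a pseudocount of 1 and the Pdcd1 difference to 0.11 with the array CCL1 2 added. Over omitted arrays these ran from -0.25 to 0.16, positive without unstimulated 1, and from -0.19 to 0.053, positive without Dex 1 or Dex+CCL1 2. For Dex within number 2 the Pdcd1 difference ran from -0.084, without IL-9 2, to 1.00, and was 0.020 with the array CCL1 2 added. The Il10 difference there was 3.09 and 0.65 with pseudocounts of 1 and 64 and 0.50 without the number terms. Probe sets called for CCL1 were 3 with the array CCL1 2 added and 44 with the replicate block within Dex state, and 1 to 66 over omitted arrays, 66 without Dex 1. The plain replicate block left 1 call, with Il10 at -0.26 and Pdcd1 at -0.23, and the block within Dex state put them at -0.44 and -0.22. Calls for Dex within number 2 were 81, with 44 without a filter, 0 with no replicate block, and 29 to 116 over omitted arrays, over 1.5 times fewer without any 1 of unstimulated 2, Dex 1, IL-9 1, IL-9 2, Dex+IL-9 1, Dex+CCL1 1 and Dex+CCL1 2. Calls for number 1 against number 2 were 108, with 65 without a filter, 199 with the array CCL1 2 added, and 46 to 217 over omitted arrays, 217 without Dex 2 and over 1.5 times fewer without any 1 of the others but Dex+IL-9 2 and Dex+CCL1 2. Same-numbered arrays deviated from their group means with correlations from -0.0051 to 0.31 across probe sets. The next probe set of a gene was not run, since each gene had 1.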
